A study of Hirudo medicinalis with 12 samples.

Results

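The comparison of ganglion 19 with ganglion 10 sets the nerve cord of the adult medicinal leech (Hirudo medicinalis) toward its tail against the same cord in the middle of the body. It uses 9 of the 12 libraries of the series, picked by the ganglion that the labels name. The 3 libraries of ganglion 19 are libraries 3, 6 and 9, and the 6 libraries of ganglion 10 are libraries 2, 5, 8, 10, 11 and 12. The remaining 3 libraries, of ganglion 2 near the head, are not part of the contrast. They entered the filter on low counts, the scaling and the estimate of spread. All libraries came from adults of 1 colony that were kept alike, with ganglia chain as the labelled tissue, and the labels give no strain, sex or treatment. The series describes 3 leeches without saying which leech a library came from. If those 3 leeches supplied all libraries, some of the 6 ganglion 10 libraries must share an animal. The main tests count each library as independent, so p-values here reflect how libraries vary and not how leeches vary. The labels do not say whether a library held 1 ganglion or several pooled ganglia.

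The leech nerve cord is a chain of segmental ganglia joined by connectives. Each midbody ganglion holds sensory neurons, interneurons and motor neurons that serve its own body segment, together with glia, inside a sheath that carries muscle fibres and lies in a blood sinus. Most identified neurons recur from segment to segment, while some differ with position along the body, and segment identity in animals is commonly set by genes of the Hox family. The deposited identifiers carry no gene name and no sequence was available for this work, so neither the products of the transcripts below nor the markers of nerve, glia, muscle or blood can be named.

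The unit described here is the component, which is the group of assembled sequences (rows) that the assembly placed together. The rows of a component are commonly alternative forms, alleles or near copies of a transcript. The deposited table held 76845 rows in 58593 components, of which 48935 had a single row. After a filter on low counts, 31524 components were tested. Total counts ran from 10001860 to 19110631 per ganglion 19 library and from 7290363 to 12945651 per ganglion 10 library. Levels are in CPM, the count per 1000000 counts of a library size scaled by the trimmed mean of M-values (TMM), so a level is not the plain share of a library. Fold changes are log2 of ganglion 19 over ganglion 10 throughout. Their median over all components tested was -0.44, -0.38 with upper quartile scaling and -1.14 when library 6 was left out, so a component at 0 lies somewhat above the middle of the distribution.

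A small set of components was abundant in ganglion 19 and nearly silent in ganglion 10, and in edgeR's test no component passed in the other direction. By edgeR's quasi-likelihood test with Benjamini-Hochberg adjustment, 28 components were higher in ganglion 19, which is 0.0888% of those tested. None was lower (0.0%), although 5472 components (17.4%) leaned lower with an unadjusted edgeR p under 0.05, against 1331 (4.22%) that leaned higher. DESeq2 called 360 higher and 3098 lower (1.14% and 9.83%), and limma-voom, weighting libraries, called 187 higher (0.593%) and 3 lower (0.00952%). Leaving out library 3 gave 13 calls in edgeR, and leaving out libraries 1, 2 or 7 gave 205, 357 or 62. With ganglia 19 and 10 alone, edgeR tested 27762 components and called 66 higher and 38 lower. In bulk tissue, more cells that carry a transcript and more transcript in each cell cannot be told apart, which holds for every difference below.

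In ganglion 19 the mean level of the 28 ran from 16.7 to 895 CPM with a median of 114 CPM. The highest value of any of them in a ganglion 10 library was 13.1 CPM, and 5 had no counts at all in ganglion 10. In 27 of the 28 every ganglion 19 library stood above every ganglion 10 library, where 1.9% of all components did so. The test that picked the 28 used these same libraries, which favours such separation. Their fitted log2 fold changes spanned 6.47 to 12.81, and the median was 9.38. With the 5 silent components set to the bound that 3 counts over the ganglion 10 group allow, that median became 9.14 and the top value 11.34. The exception to full separation was comp563_c0, with 31, 5659 and 22768 counts in libraries 3, 6 and 9. Its 5.41 CPM in library 3 lay within the ganglion 10 range of 1.27 to 13.1 CPM, and it was picked out here after its values were seen. When the fit held libraries 1 to 9 alone, edgeR called 1 component, comp6730_c0, and the log2 fold changes of the 28 stayed above 0.

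**Figure D1:**
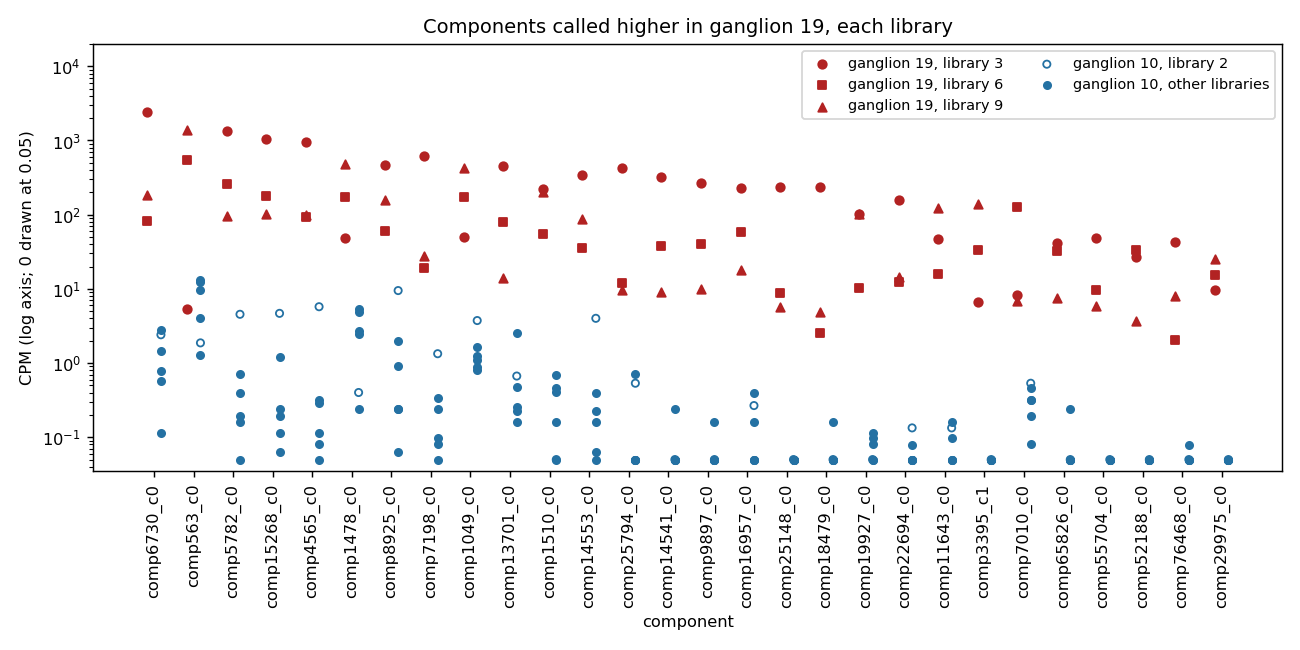
Level in CPM (log axis) of each of the 28 components called higher in ganglion 19, ordered by their ganglion 19 mean. Each library is a point, with the 3 ganglion 19 libraries in red on the left of a component and the 6 ganglion 10 libraries in blue on its right (library 2 hollow). Red and blue overlap in comp563_c0 alone, and library 3 is the highest red point in 20 components.

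The component with the smallest p was comp6730_c0, which has 1 row. It had 2419, 81.8 and 184 CPM in ganglion 19 libraries 3, 6 and 9, against 2.40, 0.781, 1.43, 0.568, 0.114 and 2.75 CPM in ganglion 10 libraries 2, 5, 8, 10, 11 and 12. The lowest ganglion 19 library lay far above the highest ganglion 10 library, and the ganglion 19 libraries differed widely among themselves. The log2 fold change was 9.37 (SE 1.08, edgeR adjusted p = 0.000495), and the ratio of pooled counts was 384-fold, with a 95% counting interval of 314 to 475. Of its ganglion 19 counts, 78.0% came from library 3.

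A group of called components with their peak in library 3 had almost no counts in ganglion 10. comp9897_c0 had 268, 39.6 and 10.1 CPM in ganglion 19, while in ganglion 10 it had 2 counts in library 8 and none elsewhere (log2 fold change 11.34, SE 1.39, edgeR adjusted p = 0.000655). comp14541_c0 had 317, 37.3 and 9.00 CPM in ganglion 19 and 3 counts in all of ganglion 10. comp22694_c0 had 159, 12.5 and 14.3 CPM in ganglion 19 and no more than 0.134 CPM in a ganglion 10 library. comp16957_c0, which has 4 rows, had 231, 57.7 and 17.9 CPM in ganglion 19 and at most 0.390 CPM in ganglion 10. Each of these was separate between the ganglia by a wide margin even in its lowest ganglion 19 library. comp18479_c0 was the most uneven of the group, with 238 CPM in library 3 but 2.53 and 4.92 CPM in libraries 6 and 9. comp25148_c0 was alike, with 237, 8.75 and 5.76 CPM in ganglion 19 and none in ganglion 10, a level at least 1057-fold higher by the bound of 3 counts over the group. These levels and this bound add together 2 rows that were identical in every library. When library 3 was left out, comp14541_c0, comp22694_c0, comp16957_c0, comp18479_c0 and comp25148_c0 no longer passed, with edgeR adjusted p-values of 0.0955, 0.140, 0.0732, 0.239 and 0.208 and log2 fold changes of 8.74, 8.28, 8.11, 6.53 and 9.31.

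A second group, also highest in library 3, carried counts in ganglion 10 library 2. comp5782_c0 had 1357, 261 and 95.1 CPM in ganglion 19, against 4.54 CPM in library 2 and 0 to 0.717 CPM in the other ganglion 10 libraries (log2 fold change 9.18, SE 1.31, edgeR adjusted p = 0.00167). comp15268_c0 had 1059.5, 179.7 and 101 CPM in ganglion 19, with 4.68 CPM in library 2 as its highest ganglion 10 value. comp7198_c0 had 621, 18.9 and 27.7 CPM in ganglion 19, with 1.34 CPM in library 2 as its highest ganglion 10 value. In all 3 of these, library 2 was the ganglion 10 library nearest to ganglion 19. comp7198_c0 also lost its call without library 3 (log2 fold change 6.13, edgeR adjusted p = 0.208).

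A further set was about as high in library 9 as in library 3, or higher. comp1510_c0 had 224, 55.0 and 201 CPM in ganglion 19, against 0, 0.683, 0.159, 0.406, 0.456 and 0 CPM in ganglion 10 (log2 fold change 9.09, SE 1.14, edgeR adjusted p = 0.000655). Its log2 fold changes of 8.68 to 9.75 over 28 alternative settings were the narrowest range of the 15 named higher components. comp19927_c0 had 102, 10.2 and 101 CPM in ganglion 19 and no more than 0.114 CPM in ganglion 10. comp11643_c0 had 46.7, 15.8 and 121 CPM in ganglion 19 and no more than 0.162 CPM in ganglion 10. comp3395_c1 was highest in library 9, with 6.63, 33.3 and 139 CPM in ganglion 19, and it was at 0 throughout ganglia 10 and 2. Its level was at least 1847-fold higher than in ganglion 10, and its adjusted p was 0.0649 without library 9. comp1049_c0 also peaked in library 9, with 49.4, 172 and 431 CPM in ganglion 19, against 0.796 to 3.74 CPM in ganglion 10. Its log2 fold change was the smallest of the 15, at 7.12 (SE 1.08, edgeR adjusted p = 0.00301).

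Across all 28, the highest ganglion 19 library was library 3 in 20 components, library 9 in 6 and library 6 in 2. The lowest was library 9 in 12, library 6 in 11 and library 3 in 5. Libraries 3 and 6 were sequenced in lane 8 and library 9 in lane 4, per the labels. Of ganglion 10, libraries 2 and 8 were in lane 8, libraries 5, 10 and 11 in lane 4 and library 12 in lane 2. Full separation fixes the direction within a lane for 27 of the 28. With the lane as a term, edgeR called 23 higher and 2 lower, and 21 of the 28 passed. The few counts in ganglion 10 were spread unevenly over its libraries. In the 20 components whose highest ganglion 19 count was in lane 8, library 2 held 257 counts, library 8 held 85, library 5 held 74, library 12 held 58 and libraries 10 and 11 held 22 each. In the 8 whose highest count was in lane 4, libraries 5, 12, 11 and 10 held 196, 209, 178 and 111 counts, and libraries 2 and 8 held 46 and 31. Most counts of libraries 5, 12, 11 and 10 came from comp563_c0 (128, 153, 115 and 50) and comp1478_c0 (50, 39, 47 and 33). These sums therefore do not describe the 8 components alike. The part of the lane in these counts was not tested.

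Against the head end, 24 of the 28 also stood above every ganglion 2 library in all 3 ganglion 19 libraries, and 22 were under 1 CPM in each ganglion 2 library. This contrast uses the same ganglion 19 libraries as the one with ganglion 10 and adds no independent measurement of them. In the other 4, library 1 was the ganglion 2 library that reached the ganglion 19 values. comp13701_c0 had 453, 80.2 and 14.2 CPM in ganglion 19, against 85.9, 0.241 and 0.264 CPM in ganglion 2 libraries 1, 4 and 7. comp1049_c0 had 58.5 CPM in library 1, against 1.81 and 1.25 CPM in libraries 4 and 7.

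Of the 28 called components, 19 had a single row (67.9%, against 76.7% of components tested), so their sum is that row. Among the 9 with several rows, comp14553_c0 and comp25148_c0 each had 2 rows with identical counts, which make 1 distinct row. In the rest, counts were not shared evenly among the distinct rows. Both distinct rows of comp4565_c0 stood above all ganglion 10 libraries in every ganglion 19 library, while 3 of 6 did in comp13701_c0, 2 of 3 in comp16957_c0 and 1 of 4 in comp25794_c0. In comp14541_c0 and comp65826_c0 none of the 2 distinct rows did so by itself. A single row, comp14541_c0_seq2, held 91.0% of the ganglion 19 counts of comp14541_c0.

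At a threshold of 1 CPM, most of the called set was a gain in presence. A gain was defined as under 1 CPM in each ganglion 10 library and at least 1 CPM in each ganglion 19 library, and a loss as the reverse. Of the 28, 17 met the gain definition, and the other 11 had at least 1 CPM in some ganglion 10 library and are changes of level. Over all tested components, 75 were gains (0.238%) and 439 were losses (1.39%). The gains averaged 1.46 to 160 CPM in ganglion 19 with a median of 11.6 CPM, 17 of them had no count in ganglion 10, and 43 of the 75 were also under 1 CPM in every ganglion 2 library. None of the 75 reached 1 CPM in all 3 ganglion 2 libraries. Thresholds of 0.5 and 2 CPM gave 61 and 73 gains and 602 and 306 losses. Of the 28 called components, 14 and 18 were gains at these 2 thresholds.

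The losses were more numerous and lower in level, and none passed edgeR's test, though 358 of the 439 had an unadjusted p under 0.05. Their mean in ganglion 10 had a median of 5.26 CPM and reached 51.8 CPM, and 79 had no count in any ganglion 19 library. Of the 439, 42 were at 1 CPM or more in every ganglion 2 library and 29 were under 1 CPM in all of them. Losses of presence were spread unevenly over the ganglion 19 libraries. Among 12082 components at 1 CPM or more in every ganglion 10 library, 7345 also were in every ganglion 19 library. Library 3 by itself lacked 1732, library 9 lacked 864 and library 6 lacked 340, and the loss class of all 3 made up 3.63%. In the reverse direction, 8403 components were at 1 CPM or more in every ganglion 19 library, and the gain class made up 0.893% of them. A gain asks for 6 libraries under 1 CPM and a loss for 3, so these 2 shares are not like for like. The part of group size in the numbers of gains and losses was not tested.

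The 5 components with the smallest edgeR p among those lower in ganglion 19 shared an adjusted p of 0.0544, just short of the threshold in that test. All 5 passed in DESeq2 (adjusted p from 8.31e-08 to 5.69e-07), and comp21628_c1 (adjusted p = 0.0439) and comp42381_c0 (adjusted p = 0.0268) passed in limma-voom. comp48948_c0 had no counts in any ganglion 19 library, against 13.9, 20.3, 15.5, 3.89, 23.5 and 13.3 CPM in ganglion 10, at least 158-fold lower. comp21628_c1 also had none in ganglion 19, against 10.2, 10.8, 43.9, 21.9, 36.2 and 34.6 CPM in ganglion 10, at least 303-fold lower. Both were thus present in every ganglion 10 library and in no ganglion 19 library. Over 29 alternative settings the log2 fold change of comp21628_c1 ran from -11.74 to -3.04, and with single libraries left out from -11.34 to -10.90. comp40428_c0 and comp42381_c0 had no ganglion 19 counts against 10.2 to 39.6 CPM and 9.00 to 22.6 CPM in ganglion 10, at least 263-fold and 159-fold lower. Ganglion 2 library 1 had at most 2 counts of each of these 4 components (0 to 0.388 CPM), while libraries 4 and 7 had 1.58 to 24.8 CPM. comp9311_c0 had 0.523, 1.07 and 0.360 CPM in ganglion 19, against 3.61, 15.1, 253, 167, 136 and 217 CPM in ganglion 10 (log2 fold change -7.64, SE 1.53). Its ganglion 10 libraries split, with libraries 2 and 5 far below the other 4. All 5 passed in edgeR when library 2 was left out.

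The number of components detected at a common depth went the same way. After every library was thinned to 6436783 counts, 21018, 30859 and 23065 components had at least 1 count in ganglion 19 libraries 3, 6 and 9, against 38547, 41480, 36208, 39510, 38410 and 35890 in ganglion 10 libraries 2, 5, 8, 10, 11 and 12. Each ganglion 19 library detected fewer than each ganglion 10 library. So did ganglion 2 libraries 1, 4 and 7, with 18187, 34151 and 32498 components, and library 1 detected fewer than any ganglion 19 library. Means were 24981 ± 5193 components in ganglion 19 (SD, n = 3), against 38341 ± 2089 components in ganglion 10 (SD, n = 6). The exact permutation p was 0.0238, a 1-sided p doubled, and is the smallest that this doubling can give with 84 regroupings. The regroupings treat the 6 ganglion 10 libraries as independent, which libraries from a shared animal are not. The most abundant component, described at the end, took a larger share of counts in ganglion 19, and its part in this difference was not tested.

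The median fold change differed between abundance classes. By mean CPM over the 9 libraries, components under 1 CPM (6491 tested) had a median log2 fold change of -2.67, those of 1 to 10 CPM (15990) -0.54, those of 10 to 100 CPM (8080) 0.16, those of 100 to 1000 CPM (913) 0.28 and those of 1000 CPM and more (50) 0.47. A component under 1 CPM on average passed the filter only where some libraries held more of it, so the lowest class was in part selected for uneven levels. The filter asked for as many libraries as the smallest group holds. Ganglion 10, with more libraries than ganglion 19, can meet that more easily. Negative values are thus favoured in the low classes, and the part of the filter in their medians was not tested. Full separation above ganglion 10 was more frequent in each higher class, and full separation below it was less frequent in each class from 10 CPM on. In the lowest class 14 components (0.216%) lay above ganglion 10 in every ganglion 19 library and 607 (9.35%) below. From 1 to 10 CPM it was 181 (1.13%) above and 1676 (10.5%) below, and from 10 to 100 CPM it was 313 (3.87%) above and 362 (4.48%) below. From 100 to 1000 CPM 83 (9.09%) lay above and 10 (1.10%) below, and from 1000 CPM 8 (16.0%) lay above and none below. Over all components 599 (1.9%) lay above and 2655 (8.42%) below. Of the 28 called components, 5 lay between 1 and 10 CPM, 18 between 10 and 100 CPM and 5 between 100 and 1000 CPM. Classed by median CPM over the 9 libraries, 22 of the 28 lay under 1 CPM and 6 between 1 and 10 CPM.

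**Figure D2:**
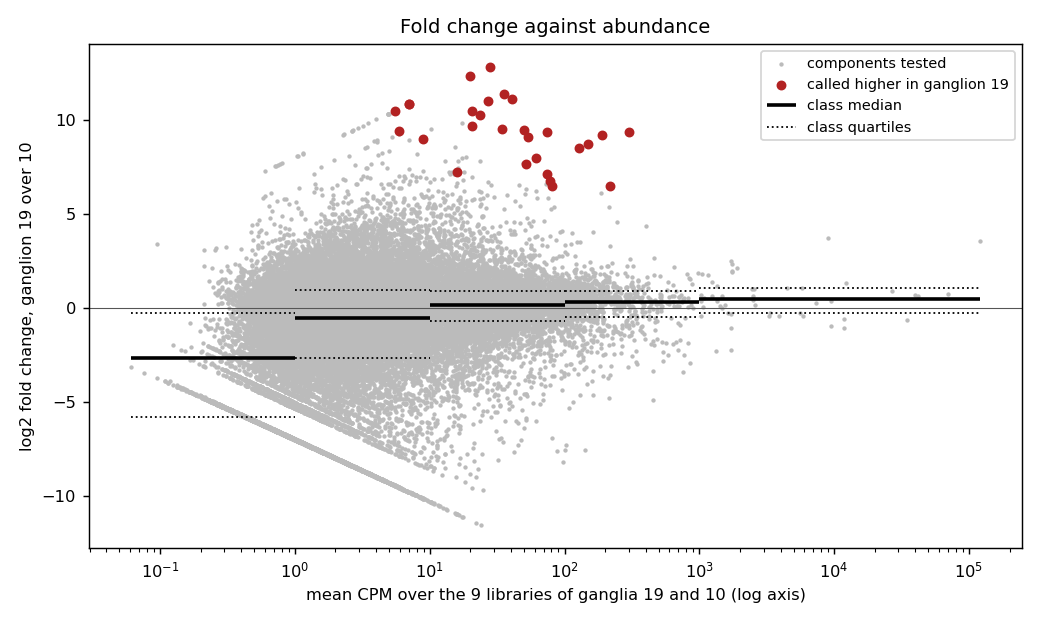
Log2 fold change of ganglion 19 over ganglion 10 against mean CPM over the 9 libraries (log axis) for the 31524 components tested. Red points are the 28 called components, solid lines the median and dotted lines the quartiles of each abundance class. The class medians run from -2.67 under 1 CPM to 0.47 at 1000 CPM and more, and the oblique streaks of points are components with no or few counts in ganglion 19.

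The 8 components of 1000 CPM and more that lay above in every library were comp14_c0, comp394_c0, comp271_c1, comp275_c0, comp244_c0, comp73_c0, comp392_c0 and comp98_c0, named after their values were seen. comp275_c0, with the smallest p of its class, had 5820, 2262 and 3089.9 CPM in ganglion 19, against 1156, 1115, 275, 617, 650 and 670 CPM in ganglion 10. Its lowest ganglion 19 library held about as much again as its highest ganglion 10 library, yet the difference did not pass in edgeR (log2 fold change 2.32, SE 0.57, adjusted p = 0.115). It passed in DESeq2 (adjusted p = 0.0309), in limma-voom (adjusted p = 0.000488) and in edgeR without library 2 (adjusted p = 0.0357). comp244_c0 had 2082, 1476 and 7798 CPM in ganglion 19, against 398, 151, 1079, 702, 632 and 1131 CPM in ganglion 10 (log2 fold change 2.47, SE 0.61, edgeR adjusted p = 0.118). It too passed in DESeq2 (adjusted p = 0.0188) and limma-voom (adjusted p = 0.0296).

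Among components of 100 to 1000 CPM, comp7181_c0 was the strongest of the 10 that lay below throughout. It had 2.09, 0.0972 and 1.20 CPM in ganglion 19, against 55.8, 73.2, 191, 301, 260 and 392 CPM in ganglion 10 (log2 fold change -7.57, SE 1.65, edgeR adjusted p = 0.0769), and it passed in DESeq2 (adjusted p = 4.43e-06) but not in limma-voom (adjusted p = 0.207). It was also low in libraries 1 and 4 of ganglion 2, at 2.91 and 1.93 CPM, and at 340 CPM in library 7. comp242_c0, with the smallest p among the lower components at 1000 CPM and more, had 394, 236 and 465 CPM in ganglion 19, against 76.2, 69.6, 1469, 2684, 3558 and 3108 CPM in ganglion 10. Its groups overlapped, because ganglion 10 libraries 2 and 5 lay below all of ganglion 19 (log2 fold change -2.32, SE 1.02, edgeR adjusted p = 0.189).

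The library numbers fall into runs of ganglion 2, 10 and 19, and 3 runs pair a ganglion 19 library with a ganglion 10 library: 3 over 2, 6 over 5 and 9 over 8. The labels do not say that a run is a leech, so the runs are described and not tested. On log2 ratios of CPM + 0.5, the 28 called components were higher in all 3 runs, which full separation fixes for 27 of them, as were 2159 of all components (6.85%), and 7114 (22.6%) were lower in all 3. Over 4-fold in every run, 170 (0.539%) were higher and 648 (2.06%) lower. All 439 losses were lower in each run, which their definition fixes.

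In all 3 runs the class medians lay below 0 under 10 CPM and above 0 from 100 CPM, with components classed by mean CPM. The filter can lean toward ganglion 10 in the low classes here too, and its part in these medians was not tested. Classed by median CPM, the class of 1000 CPM and more stood at -0.10 in run 9 over 8. The median log2 ratio over all components was -0.62 in run 3 over 2, -0.26 in run 6 over 5 and -0.41 in run 9 over 8. The 0.5 CPM added draws ratios of low levels toward 0, so medians in the low classes do not measure the fold change. In the class under 1 CPM they were -0.62, -0.48 and -0.56. From 1 to 10 CPM the medians were -1.05, -0.51 and -0.71, and from 100 to 1000 CPM they were 0.51, 0.46 and 0.31. From 10 to 100 CPM the runs disagreed in sign, at -0.20, 0.04 and 0.01. Across the 31524 components, Pearson correlations of the log2 ratios were 0.180 between runs 3 over 2 and 6 over 5, 0.0536 between runs 3 over 2 and 9 over 8 and 0.0957 between runs 6 over 5 and 9 over 8. These describe components, which are not independent, and the ratios share TMM scaling.

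**Figure D3:**
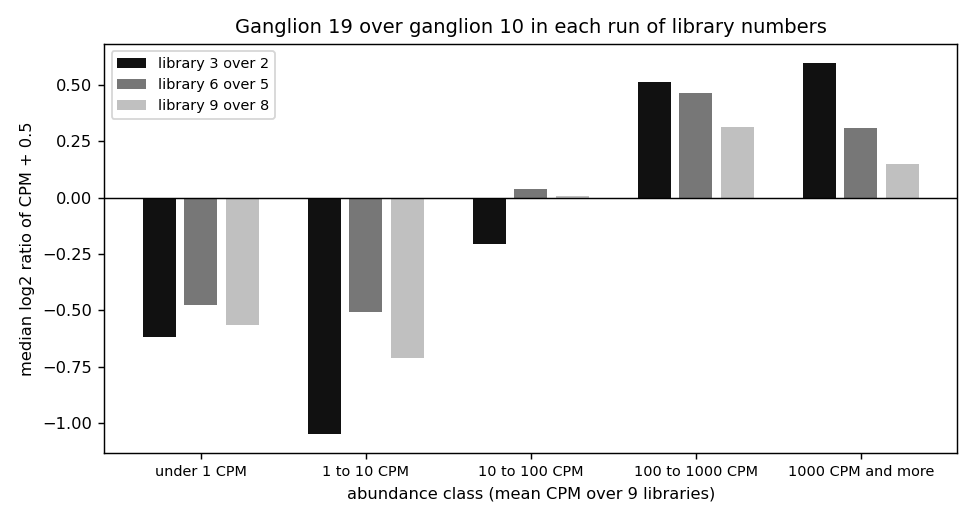
Median log2 ratio of CPM + 0.5 of ganglion 19 over ganglion 10 by abundance class in the 3 runs of library numbers. Bars are medians over components, without an error, and the 0.5 CPM added draws those of the low classes toward 0. All 3 runs lie below 0 under 10 CPM and above 0 from 100 CPM, with 0.60, 0.31 and 0.15 in the class of 1000 CPM and more.

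A separate change was in which row of a component carried the counts. Of 3003 components with at least 2 distinct rows after filtering, edgeR's diffSpliceDGE called 40 (1.33%), while 616 (20.5%) had an unadjusted p under 0.05. The number called rested on single libraries, with 8 called without library 9, 17 without library 3, 14, 15, 19 and 21 without ganglion 10 libraries 10, 12, 11 and 5, and 74 without ganglion 2 library 1. With runs of library numbers as blocks, 0 were called and 394 had an unadjusted edgeR p under 0.05. In that fit libraries 10, 11 and 12 form a block of ganglion 10 alone. None of the 40 was called by the sum, and in 35 the sum differed by less than 2-fold. The row with the largest share differed between the ganglia in 23 of the 40 (57.5%), against 38.2% of all components tested. In 30 of the 40 some row had no counts in any ganglion 19 library, against 1107 of all 3003 tested (36.9%). In 18 some row had none in any ganglion 10 library, against 325 (10.8%), and in 8 both held, against 166 (5.53%). Rows at 0 in a whole group are part of what the test reads, so these shares describe the called components. Of the 40, 32 were among the 2115 tested between 10 and 100 CPM, 7 among the 188 between 100 and 1000 CPM and 1 among the 685 between 1 and 10 CPM. The sources used here do not say whether such rows are splice forms, alleles or near copies. Libraries 10, 11 and 12, all of ganglion 10, hold expected counts, while the other libraries hold whole counts. Row shares can depend on how reads are divided among like rows, and the part of this in the shifts was not tested.

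comp2843_c0, with 3 rows, had the smallest p (edgeR adjusted p = 0.000113). Its row seq2 held 75.9%, 29.6% and 84.5% of its counts in ganglion 19 libraries 3, 6 and 9 and was at 0 in every ganglion 10 and ganglion 2 library. Its row seq1 held 14.8%, 68.2% and 15.5% in ganglion 19, against 76.0 to 94.4% in ganglion 10. The shares of both rows were fully separate between the ganglia, while the sums were not, at 154 to 205 CPM in ganglion 19 and 111 to 769 CPM in ganglion 10 (log2 fold change -0.91, SE 0.79, edgeR adjusted p = 0.576). A filter that asked for 1 CPM in 6 libraries dropped row seq2, after which the shift did not pass.

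comp10914_c0 lacked rows in ganglion 19 while its sums lay close together in both ganglia. It had 57.7, 61.3 and 55.8 CPM in ganglion 19, against 56.8, 54.1, 54.9, 64.2, 39.6 and 56.8 CPM in ganglion 10 (log2 fold change 0.10, SE 0.66). Row seq4 held all its counts in the 3 ganglion 19 libraries, against 5.65%, 66.6%, 57.1%, 40.3%, 79.0% and 78.5% in ganglion 10 (edgeR adjusted p = 0.00421). Rows seq2 and seq1 had no counts in ganglion 19 and were present in each ganglion 10 library, where seq2 held 19.9 to 46.3% and seq1 held 1.15 to 57.6%. Library 2 was the ganglion 10 library with the least of row seq4. Both rows were also present in the 3 ganglion 2 libraries, where seq2 held 36.4 to 48.5%.

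comp19193_c0, with 12 rows, had rows seq3, seq1 and seq11 in every ganglion 10 library, at mean shares of 19.8%, 14.4% and 12.6%, and no counts of them in ganglion 19. Its row seq8 held 33.3%, 21.8% and 83.1% in ganglion 19, against 0 to 5.48% in ganglion 10 (edgeR adjusted p = 0.00689). The adjusted p was 0.0769 without library 9 and 0.0566 without library 6. comp843_c0 was split within ganglion 19: row seq2 held 100% and 82.0% of its counts in libraries 3 and 9 and none in library 6, and it had no counts in ganglion 10 (edgeR adjusted p = 0.0104). Library 6 used row seq1 alone, as all ganglion 10 libraries did. Row seq2 was also used in ganglion 2, at 96.4% in library 1, 25.8% in library 4 and 0 in library 7, so it was not limited to ganglion 19.

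**Figure D4:**
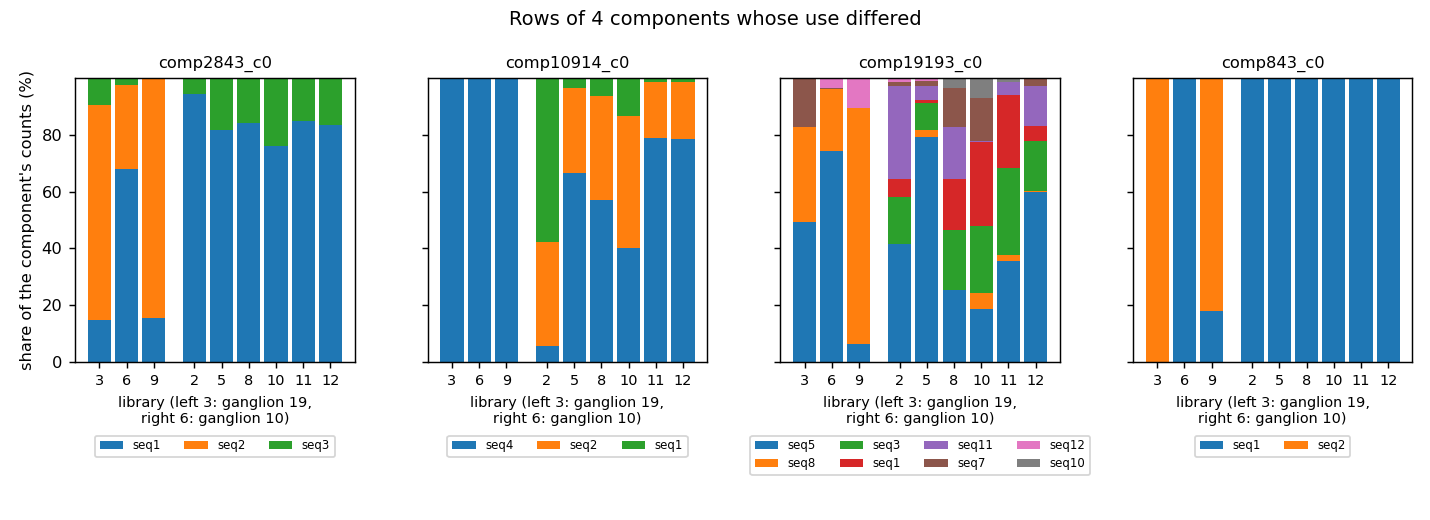
Share of the counts of comp2843_c0, comp10914_c0, comp19193_c0 and comp843_c0 that each distinct row holds, in percent, by library (ganglion 19 left, ganglion 10 right, within each panel). Row seq2 of comp2843_c0 appears in the 3 ganglion 19 libraries alone, and ganglion 19 uses row seq4 of comp10914_c0 alone.

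The remaining named shifts were in components with many rows. comp12069_c0 has 52 rows and 46 distinct ones, and its leading row in ganglion 19, seq11, held 25.3%, 12.8% and 8.32%, against 4.59 to 10.8% in ganglion 10 (edgeR adjusted p = 0.00638). Its leading row in ganglion 10, seq47, held 0%, 10.5% and 2.43% in ganglion 19, against 12.4 to 16.4% in ganglion 10. The call was lost without library 6 (adjusted p = 0.0772) or library 9 (adjusted p = 0.132). comp16993_c0 has 34 rows (adjusted p = 0.00421), but its 3 ganglion 19 libraries each led with another row, seq7, seq34 and seq31. Library 3 held 6 counts of comp16993_c0, all in row seq7, so the share of 100% there rests on those 6 counts. The filter dropped row seq7 before the test, so library 3 had no counts in the rows tested.

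The most abundant component, comp10_c0, set ganglion 19 apart from 5 of the 6 ganglion 10 libraries. It took 36.2%, 7.77% and 13.6% of all counts in ganglion 19 libraries 3, 6 and 9, against 14.4% in ganglion 10 library 2 and 0.797%, 0.151%, 0.190%, 0.407% and 0.409% in libraries 5, 8, 10, 11 and 12. Library 2 thus lay within the ganglion 19 range and the others far below it. Over all libraries comp10_c0 did not pass in edgeR (log2 fold change 3.56, SE 1.27, adjusted p = 0.165) or DESeq2 (adjusted p = 0.101) and passed in limma-voom (adjusted p = 8.18e-05). Without library 2 it was higher in ganglion 19 in edgeR too (log2 fold change 6.59, adjusted p = 0.00108). In ganglion 2 it took 1.28%, 0.0687% and 0.0401% of counts in libraries 1, 4 and 7.

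Among the 962 components at a mean of 100 CPM and more, 7 had a Pearson correlation of log2 level with comp10_c0 over 0.95 across the 9 libraries. They were comp64_c0, comp1119_c0, comp5981_c0, comp3827_c0, comp9413_c0, comp5578_c0 and comp655_c0, chosen by that likeness after the data were seen. comp64_c0 had 55399, 4892 and 9801 CPM in ganglion 19, against 9501, 451, 94.5, 63.5, 434 and 352 CPM in ganglion 10. Library 2 again fell among the ganglion 19 values. comp655_c0 had 761, 306 and 568 CPM in ganglion 19, against 45.6 CPM in library 2 and at most 0.781 CPM in the other ganglion 10 libraries. Unlike comp64_c0, it kept library 2 below all of ganglion 19. None of the 7 passed in edgeR over all libraries (adjusted p from 0.0727 to 0.284), and each passed without library 2. The choice by likeness to comp10_c0 favours a raised library 2 and a pass without it, so neither is a separate finding. limma-voom called all 7 over all libraries (adjusted p from 5.75e-06 to 0.0357), and DESeq2 called comp5981_c0 (adjusted p = 0.00224) and comp655_c0 (adjusted p = 0.00509).

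**Figure D5:**
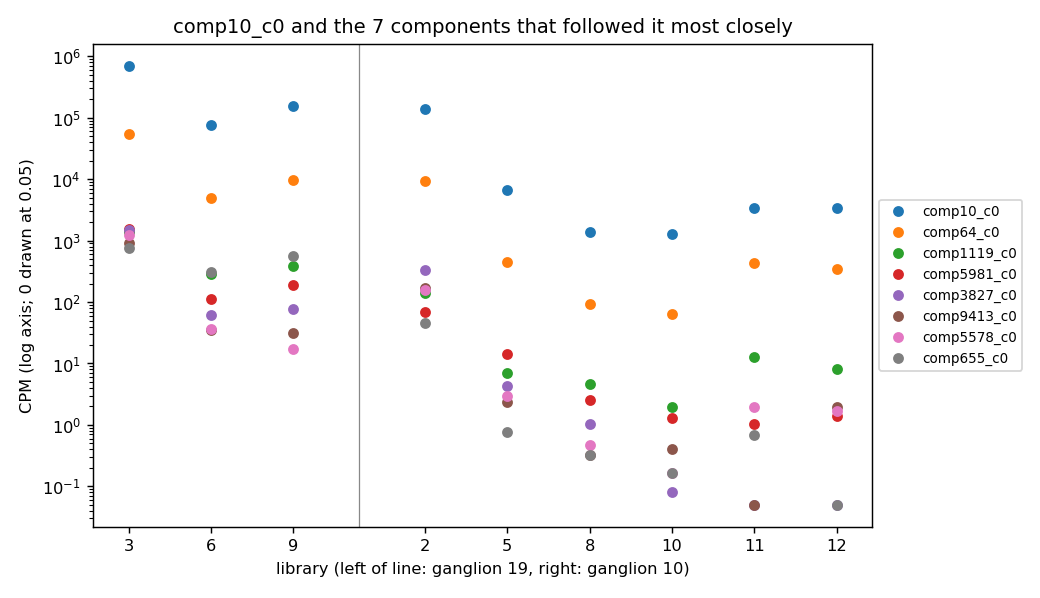
Level in CPM (log axis) of comp10_c0 and the 7 components most like it, in the 3 ganglion 19 libraries (left of the line) and the 6 ganglion 10 libraries (right). Library 2, the first on the right, stands above the other 5 ganglion 10 libraries for all 8 components, and comp10_c0 reaches 141237 CPM there. The 7 were chosen by likeness to comp10_c0 across these libraries, which favours a raised library 2.

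The other 5 of the 6 most abundant components did not pass. comp9_c0 had 165751, 76821 and 42316 CPM in ganglion 19, and library 3 by itself lay above the ganglion 10 range of 13754 to 92493 CPM (log2 fold change 0.73, SE 0.66). comp6_c0, comp4_c0 and comp11_c0 had log2 fold changes of 0.62, 0.68 and 0.88, and comp12_c0 had -0.67 (SE 0.48). The 5 had edgeR adjusted p-values from 0.450 to 0.675.

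The place of library 2 bore on the count of calls as a whole. Without it, edgeR called 256 components higher (0.812%) and 101 lower (0.32%), and all 28 were among the 256. In presence, 90 components at 1 CPM or more in all ganglion 19 libraries reached 1 CPM in library 2 alone of ganglion 10, against 15, 9, 4, 7 and 3 for libraries 5, 8, 10, 11 and 12.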

How the data were processed

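RNA of ganglia 19, 10 and 2 was sequenced in 12 libraries. Per the submitters' processing notes, the tools were Cufflinks, FastQC, RSEM and TopHat, in no stated order, and the sources used here do not give the assembler. The authors deposited whole-number counts per assembled sequence for libraries 1 to 9 and expected counts, as RSEM estimates them, for libraries 10, 11 and 12. Counts were summed per component, the identifier without its last number, and sums were rounded. Columns were matched to libraries by the number that opens the title.

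Components were kept by filterByExpr of edgeR 4.0.16 (minimum count 10; 27069 removed) and scaled by TMM (factors 0.425 to 1.49). All 12 libraries were fitted by quasi-likelihood on the ganglion alone (common biological coefficient of variation 1.31), with Benjamini-Hochberg adjustment over 31524 components and a threshold of 0.05. Row shifts used diffSpliceDGE after rows identical within a component were added together. Standard errors derive from the F statistic, and SDs are over libraries. Intervals (exact binomial, 95%) and bounds of 3 counts cover counting error only, because reads copied by PCR are not separate molecules. Both fits were tested on simulated data.

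Components named are the 15 with the smallest p among those higher, the first 5 lower, 6 row shifts, the 6 most abundant and the smallest p per direction in each class from 10 CPM. The members, lists and rules were chosen with earlier results of these data known. Lists of neural, glial, muscle, blood and salivary genes could not be matched to identifiers without names. Alternatives were DESeq2 1.42.0, limma 3.58.1 voom, other scalings, filters and sums, the lane, runs as blocks, fewer groups and left-out libraries. Software was Python 3.11.15 (pandas 2.3.3, numpy 2.4.6) and R 4.3.3.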

Additional observations from a re-analysis of the deposited data

Results flagged for a closer look

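Of 36 values tested for a ganglion 10 library that stands apart from the other 5 (Dixon's test at the 95% level), 10 had such a library. The rate of 1 in 20 that this level implies holds for independent groups of normally distributed values. Many of these levels lie near 0 and all come from the same libraries, so the 10 are not set against that rate. It was library 2 in 6 and library 8 in 4. Library 2 stood apart upward in comp10_c0, at 141237 CPM, and in the called components comp7198_c0 (1.34 CPM), comp5782_c0 (4.54 CPM), comp15268_c0 (4.68 CPM) and comp1049_c0 (3.74 CPM), as well as in comp16993_c0 (23.4 CPM). Library 8 stood apart in comp843_c0, at 519 CPM. It was also the only ganglion 10 library with counts of comp9897_c0 (0.159 CPM), comp14541_c0 (0.239 CPM) and comp18479_c0 (0.159 CPM), which are 2 or 3 counts each. In these 3 the other 5 libraries were at 0, so any count would stand apart. Groups of 3 libraries, ganglion 19 among them, are too small for this test.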

How the results depend on the processing

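The 28 components higher in ganglion 19 had a positive log2 fold change in every setting that tested them. They were picked on these same libraries, which largely sets this sign. The count of calls was 3458 with DESeq2 (360 higher, 3098 lower; 22 of the 28, the other 6 without an adjusted p), 190 with limma-voom (187 and 3), 148 without a filter (137 and 11), 104 with ganglia 19 and 10 alone (66 and 38), 47 by the number before _c (6 lower), 44 with identical rows counted once (5 lower), 121 without libraries 1 and 3 (52 and 69), 459 without libraries 2 and 5 (279 and 180) and 1 in libraries 1 to 9. A filter of 1 CPM in 6 libraries tested 5 of the 28 and called 2. Robust spread, upper quartile scaling and the lane gave 3, 1 and 2 lower. With single libraries left out, calls ran from 13 (library 3) to 357 (library 2), higher from 13 to 256 and lower from 0 to 101; it was 205 without library 1 and 62 without library 7. With the filter applied anew, an alternative chosen after seeing the data, the count was 290 without library 2 (193 and 97) and 60 without library 3 (58 and 2). Row shifts numbered 108 with limma diffSplice, 6 with the stricter filter and 8 (without library 9) to 74 (without library 1) with single libraries left out. Same-run libraries 3 and 2, 6 and 5, and 9 and 8 had correlations of deviations of 0.193, -0.0265 and -0.00942, so the runs were not taken to pair libraries. With a replicate block of runs, edgeR called 26 higher and 10 lower, no row shift passed (394 with an unadjusted edgeR p under 0.05) and comp242_c0 had a log2 fold change of 0.65. comp9_c0 had a log2 fold change of -0.0186 without libraries 1 and 3. The share of row seq7 of comp16993_c0 differed by -1.98 percentage points without library 3, against 48.0 without library 6 or 9. The detection difference, -13360 components, ran from -16299 to -11379 with single libraries left out. With 2 ganglion 19 libraries its exact permutation p, a 1-sided p doubled, is 0.0714, the smallest that doubling can give. Classed by median CPM, 144 components lay above and 1176 below under 1 CPM, and 4 below from 100 to 1000 CPM. Over 4-fold in all runs, 264 were higher and 2120 lower with a pseudocount of 0.1 CPM, and 81 and 86 with 2 CPM. Where a cause is not given, the cause was not tested. Low counts limit ganglion 10 values of the called components, many of which rest on 0 to 3 counts.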
